A study of Caenorhabditis elegans with 12 samples.

Results

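The histone genes of Caenorhabditis elegans were taken as every row whose gene name is his- followed by digits and that held any count in the 12 libraries. They numbered 72 of the 46711 gene rows found in both deposited tables, and all 72 passed the filter on low counts. The values are counts of ribosome footprints, the pieces of mRNA that ribosomes shield from nuclease digestion, from whole mid-L4 larvae grown at 20 °C and collected 45 h after feeding. A pair of strains tests each of 2 alleles of the microRNA gene let-7, with 3 replicates lettered A to C in every strain. In the U13A pair, the strain VT3878 carried lin-41(tn1541ma480) and let-7(ma432) and its control DG3913 carried lin-41(tn1541). In the U18A pair, VT3797 carried the transgene maIs105 and let-7(ma435), and its control VT1367 carried maIs105. The lin-41 allele thus also differed within the U13A pair, where the labels describe the mutant as one in which what lies downstream of lin-41 is left out. The transgene maIs105 is known as a reporter of the adult hypodermal collagen gene col-19. The pairs differ in lin-41 allele and in maIs105, and were deposited separately. Levels compared between strains of different pairs therefore cannot tell these apart.

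Histones package DNA into nucleosomes, each made of the core proteins H2A, H2B, H3 and H4, while H1 binds the linker DNA between them. Most core histone mRNAs of animals end in a stem-loop in place of a poly(A) tail and are made mainly while DNA is replicated, whereas H3.3 is a replacement H3 that is deposited outside S phase. At the L4 stage the germ line is proliferating and entering meiosis, and the hypodermal seam cells divide early in each larval stage, so several tissues of a larva can contribute histone footprints. Footprint counts of whole larvae combine mRNA abundance with how often it is translated, and fewer cells of a type cannot be told apart from less RNA per cell.

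By class, the 72 genes comprised 17 H2A genes, 16 H2B, 15 H3, 16 H4, 5 H3.3-like genes (his-69, his-70, his-71, his-72 and his-74) and the H1 gene his-24. Annotated protein lengths were 127 residues for H2A, 122 or 123 for H2B, 136 for H3, 103 for H4 and 208 for his-24. The H3.3-like genes ran from 127 to 136 residues, with his-69 at 127 and his-70 at 134. The short gene models his-39 (67 residues) and his-73 (46 residues) were put in no class. In all, 65 genes had 1 coding exon and 7 had more, namely his-24, his-35, his-37, his-41, his-71, his-72 and his-74. With members less than 100 kb apart joined, the genes formed 16 genome clusters, with 27 genes on chromosome V, 22 on IV, 14 on II, 4 on X, 3 on III and 2 on I. On the build WBcel235 the largest groups were 14 genes at V, 8847393 to 8898539, 13 genes at II, 13817760 to 13828697, and 12 genes at IV, 11324056 to 11407427.

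Many histone genes are near copies of each other, and the counts carry that. For 35 genes in 14 sets, counts differed by at most 1% or 3 reads between set members in all 12 libraries. The H2A genes his-47, his-57 and his-65 on IV, for example, held 13682, 13680 and 13679 counts in DG3913 replicate A. The 72 genes thus gave 51 distinct count profiles. Reads that match several copies therefore appear to have been counted at each, so a class sum can hold a read more than once and a value belongs to a set of copies where the copies share a profile. Histone rows held between 2.19% and 3.12% of the counts of a library, or between 1.32% and 1.89% with each set of near copies counted once. Total counts per library ran from 8405704 to 44950649, with VT3878 deeper than DG3913 and VT3797 shallower than VT1367 in every library.

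In the U18A pair, 26 of the 72 histone genes were lower in the let-7(ma435) larvae and 0 were higher, called by edgeR's quasi-likelihood test below an adjusted p of 0.05. This was 36.1% of the histone genes, while of all genes tested 6.75% were lower and 4.11% higher. Of the called genes, 22 of 27 lay on chromosome V and 4 of 4 on X, while 0 of the 41 genes on I to IV were called. In the U13A pair, 1 of 72 histone genes was lower, his-24, and 0 were higher, while of all genes tested 2.57% were lower and 3.07% higher. The direction was shared much more widely than the calls, with a negative log2 fold change for 71 genes in the U18A pair and 67 in the U13A pair. The median log2 fold change of the histone genes was -0.27 in the U18A pair and -0.30 in the U13A pair, while that of all genes was below 0.01 in size in both.

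**Figure D1:**
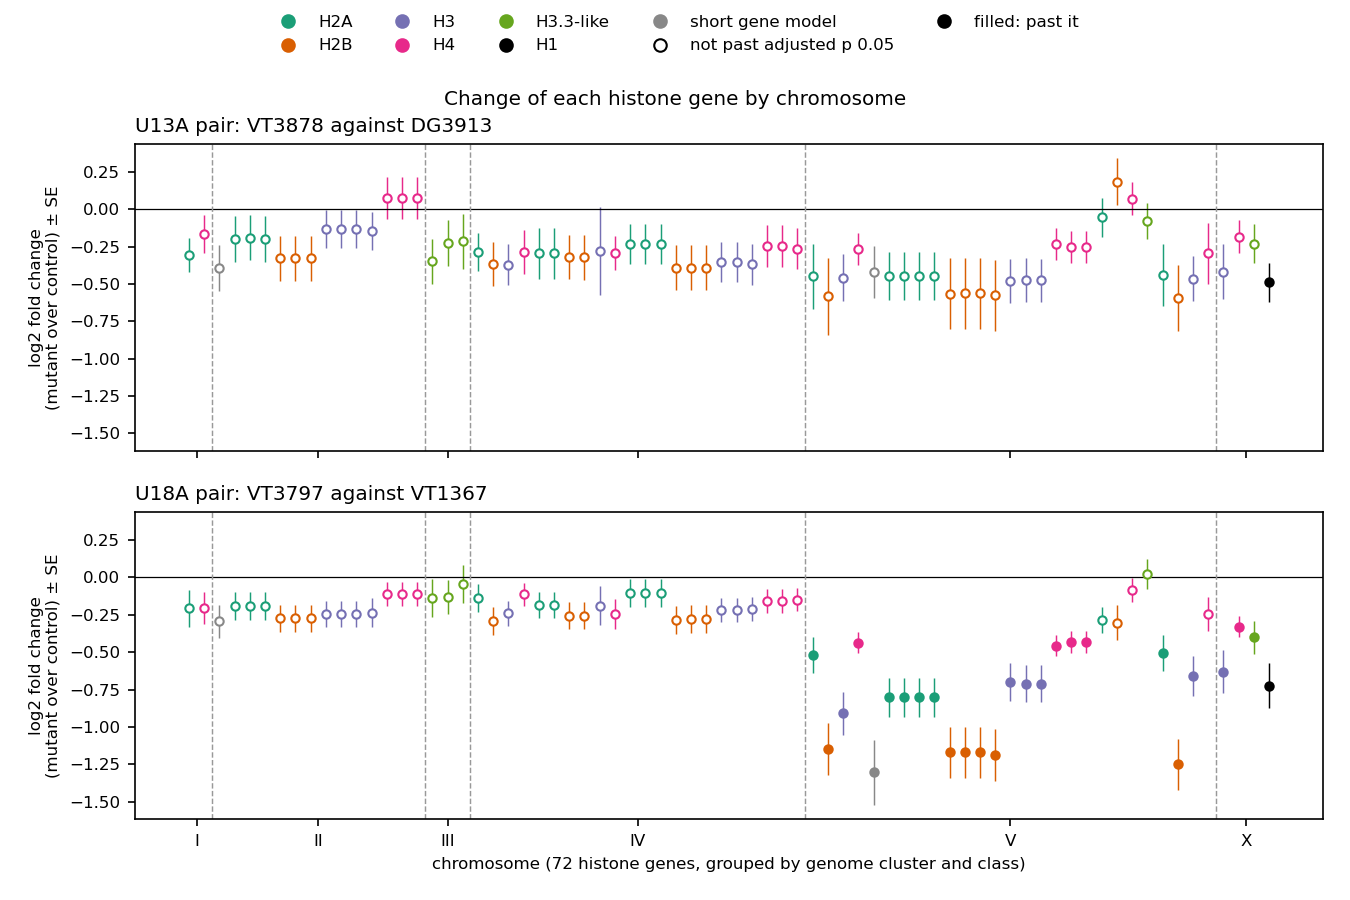
Log2 fold change of mutant over control for each of the 72 histone genes in the U13A pair (upper) and the U18A pair (lower), grouped along the horizontal axis by chromosome, genome cluster and class; bars are standard errors and filled points passed an adjusted p of 0.05. In the U18A pair the 26 filled points lie on chromosomes V and X, and in the U13A pair the single filled point is his-24.

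The levels of the core classes come first, since they hold nearly all histone footprints. Levels are given in CPM, counts relative to the library total, scaled by TMM over the 12 libraries. The summed H2A genes stood at 9370, 9638 and 7615 CPM in DG3913 and at 8223, 6897 and 7407 CPM in VT3878. They stood at 8997, 9071 and 9349 CPM in VT1367 and at 7483, 7367 and 9418 CPM in VT3797. The H2A groups overlapped in both pairs, and the log2 ratio of the group means was -0.24 for U13A and -0.18 for U18A. The U18A ratio was -0.11 without VT3797 replicate B and -0.30 without VT3797 replicate C. The summed H2B genes stood at 7169, 7411 and 5214 CPM in DG3913 and at 4937, 4914 and 5586 CPM in VT3878. They stood at 8425, 8200 and 6836 CPM in VT1367 and at 6189, 5932 and 6864 CPM in VT3797. For H2B, replicate C of each control lay within the mutant range, so the groups overlapped in both pairs, with log2 ratios of -0.36 and -0.31.

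The summed H3 genes stood at 4543, 4769.8 and 3607 CPM in DG3913 against 3563, 3344 and 3649.7 CPM in VT3878. They stood at 5491, 5339 and 4758 CPM in VT1367 against 4562, 4019 and 4542 CPM in VT3797. Every VT3797 library lay below every VT1367 library for H3 (log2 ratio -0.25), while the U13A groups overlapped (-0.29). The summed H4 genes stood at 7959, 8370.5 and 7126 CPM in DG3913 against 7872, 6881 and 6056 CPM in VT3878, with a log2 ratio of -0.17. In the U18A pair H4 stood at 7205, 7459.5 and 7941 CPM in VT1367 against 6758, 6261 and 7108 CPM in VT3797. The H4 groups did not overlap in the U18A pair (log2 ratio -0.17) and overlapped in the U13A pair, where the ratio was -0.27 without VT3878 replicate A and -0.08 without VT3878 replicate C. Over all core genes together, the mean was 27598 ± 3542 CPM in DG3913 and 23110 ± 1328 CPM in VT3878, and 29691 ± 699 CPM in VT1367 and 25502 ± 2221 CPM in VT3797 (SD, n = 3). The sums carry no test, and each of the 6 classes had a lower mean in the mutant of both pairs with all libraries in. The H3.3-like sum in the U18A pair, at 425, 401 and 327 CPM in VT1367 against 422, 357 and 315 CPM in VT3797, was the exception when 1 library was left out. Its log2 ratio of -0.08 became 0.02 without VT3797 replicate C and 0 without VT1367 replicate A.

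**Figure D2:**
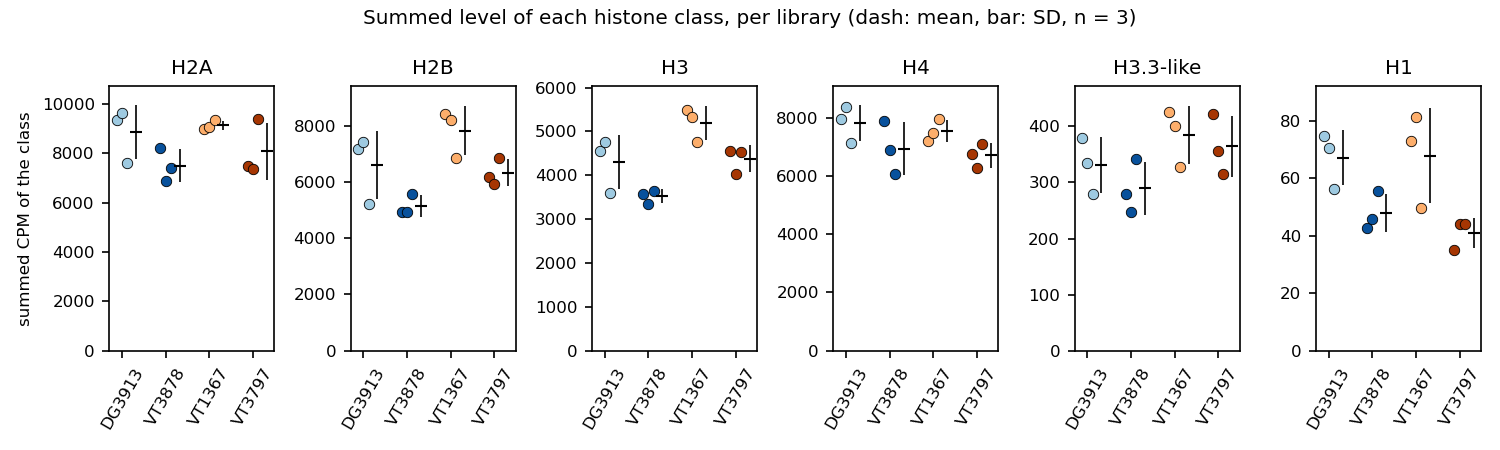
Summed footprint level of each histone class in CPM, 1 point per library, for the 4 strains; dashes are means and bars SDs of 3 libraries, and every axis starts at 0. With all libraries in, the mutant mean lies below the control mean in each class of both pairs, with groups that do not overlap for H1 in both pairs and for H3 and H4 in the U18A pair.

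The copies on chromosome IV carried most of the core footprints and were not called in either pair. The H2A set his-47, his-57 and his-65, the most abundant of its class, is represented by his-47 (IV, 11324056 to 11324439, minus strand). his-47 stood at 1646, 1712 and 1415 CPM in DG3913, 1491, 1285 and 1308 CPM in VT3878, 1433, 1467 and 1558 CPM in VT1367, and 1283, 1284 and 1604 CPM in VT3797. Its groups overlapped in both pairs, with log2 fold changes of -0.23 ± 0.14 (SE) and -0.10 ± 0.09 for U13A and U18A. The most abundant H2B genes were his-58, his-66 and his-48, of which the first pair shared a profile. his-48 (IV, 11324745 to 11325116) stood at 1186, 1255 and 862 CPM in DG3913, 787, 849 and 898.5 CPM in VT3878, 1345, 1302 and 1077 CPM in VT1367, and 991, 972 and 1106 CPM in VT3797. The lowest control library of his-48 lay inside the mutant range in both pairs, and its log2 fold changes were -0.39 ± 0.15 and -0.29 ± 0.09, with adjusted p of 0.174 and 0.0705.

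The leading H3 genes were his-45 and his-55, which shared a profile, and his-63. his-45 (IV, 11326588 to 11326998) stood at 895, 967 and 718 CPM in DG3913, 663, 670.4 and 700.2 CPM in VT3878, 994, 985 and 888 CPM in VT1367, and 831, 770.5 and 874 CPM in VT3797. Every mutant library of his-45 lay below every control library in both pairs, yet its log2 fold changes of -0.35 ± 0.14 and -0.22 ± 0.08 had adjusted p of 0.168 and 0.103. his-63 had log2 fold changes of -0.37 ± 0.14 and -0.21 ± 0.08. The leading H4 genes were his-46 and his-56, again with a shared profile, and his-64. his-46 (IV, 11326018 to 11326329) stood at 1344, 1443 and 1181 CPM in DG3913, 1255, 1132 and 983 CPM in VT3878, 1175, 1199.5 and 1256 CPM in VT1367, and 1083, 1008 and 1183 CPM in VT3797. The his-46 groups overlapped in both pairs, with log2 fold changes of -0.24 ± 0.14 and -0.16 ± 0.08, and his-64 had -0.26 ± 0.14 and -0.15 ± 0.08.

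Per kb of coding sequence, the single-exon H2A, H2B and H3 copies on V stood below those on IV in all 4 strains. In VT1367, H2B genes of V had between 147 and 194 CPM per kb, those of IV between 682 and 3417, and those of II near 2130.1. The VT1367 ranges for H3 were 113 to 173 CPM per kb on V and 224 to 2342 on IV, but in DG3913 the highest V copy, at 97.1 CPM per kb, stood close to the lowest IV copy, at 99.5. H4 copies of V had between 559 and 631 CPM per kb in VT1367 and those of IV between 941 and 3916. The H4 ranges of V and IV overlapped in DG3913, where V copies reached 982 CPM per kb and IV copies began at 822, and in VT3878, where these were 805 and 674.

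Nearly all single-exon core copies on V were called lower in the U18A pair. Among the 61 core genes with 1 coding exon, 21 of 22 on V and 2 of 2 on X were lower, against 0 of 22 on IV, 0 of 13 on II and 0 of 2 on I. Counted as distinct profiles, 14 of 15 on V were lower and 0 of 21 on II and IV. Profiles counted as distinct can still be close and may share reads. The H3 genes his-17 and his-27, for example, held 3498 and 3560 counts in VT1367 replicate B. The median log2 fold change was -0.76 for the V copies, with a range of -1.25 to -0.25, and -0.21 for the II and IV copies, with a range of -0.29 to -0.10. For U13A the same V copies had a median of -0.45 with 0 of 22 called, and the II and IV copies a median of -0.29 with 0 of 35 called. The difference between chromosomes itself was not tested.

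The size of the change on V is given by class, and these sizes were not tested against each other. The 6 H2B genes of V had log2 fold changes from -1.25 to -1.15, the 5 H3 genes from -0.91 to -0.66, the 6 H2A genes from -0.80 to -0.50 and the 5 H4 genes from -0.46 to -0.25. Apart from the H4 gene his-1 these passed the test. The calls of the H2A genes his-3 and his-7 were lost with no count filter, with all 12 libraries in 1 fit and without VT3797 replicate A or B. Without VT1367 replicate A the call of his-7 was lost, and without VT1367 replicate B that of his-3. his-4, an H2B gene (V, 16040144 to 16040515, minus strand), stood at 63.8, 60.6 and 38.2 CPM in VT1367 and at 19.02, 22.8 and 25.9 CPM in VT3797. Its groups did not overlap, and the log2 fold change was -1.25 ± 0.17 (adjusted p = 0.000275). his-54, the single-exon H2B gene of V with the highest level in every strain (8853006 to 8853377), stood at 87.0, 78.7 and 48.9 CPM in VT1367 and at 26.8, 31.8 and 34.9 CPM in VT3797, a change of -1.19 ± 0.17 (adjusted p = 0.000439). The H2B gene his-22 (V, 8892559 to 8892930), whose profile his-20 and his-52 share, stood at 78.7, 73.7 and 45.8 CPM in VT1367 and at 24.9, 29.5 and 33 CPM in VT3797. Every mutant library of his-54 and his-22 lay below every control library, and replicate C of VT1367 was the lowest control library for both. The change of his-22 was -1.17 ± 0.17 (adjusted p = 0.000438). Both his-4 and his-54 overlap a noncoding RNA gene on the other strand, while his-22 overlaps no annotated gene.

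The short gene model his-39, in the genome cluster of his-5 to his-8 on V, had low counts and the largest fall of all histone genes in the U18A pair. It stood at 24.8, 20.6 and 12.6 CPM in VT1367 and at 6.34, 7.44 and 9.15 CPM in VT3797, with a log2 fold change of -1.30 ± 0.22 (adjusted p = 0.0012). Its groups did not overlap. In the U13A pair his-39 stood at 10.6, 8.59 and 8.16 CPM in DG3913 and at 5.23, 7.52 and 7.33 CPM in VT3878, also without overlap, with a change of -0.42 ± 0.17 (adjusted p = 0.209). The difference between these changes, 0.90 ± 0.34, had an adjusted p of 0.18.

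The same H2B genes of V did not pass in the U13A pair. his-4 stood at 27.8, 23.5 and 19.8 CPM in DG3913 and at 12.2, 13.4 and 21.6 CPM in VT3878, so the highest mutant library lay inside the control range. Its log2 fold change was -0.59 ± 0.22 (adjusted p = 0.186). his-22 stood at 37.3, 30.5 and 24.3 CPM in DG3913 and at 14.9, 19.7 and 27.5 CPM in VT3878, again with overlap, a change of -0.56 ± 0.24 (adjusted p = 0.255). For each of these genes the DG3913, VT3878 and VT3797 libraries lay below all 3 VT1367 libraries. Against the U13A strains, this difference in level cannot be told apart from genetic background or separate deposit.

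**Figure D3:**
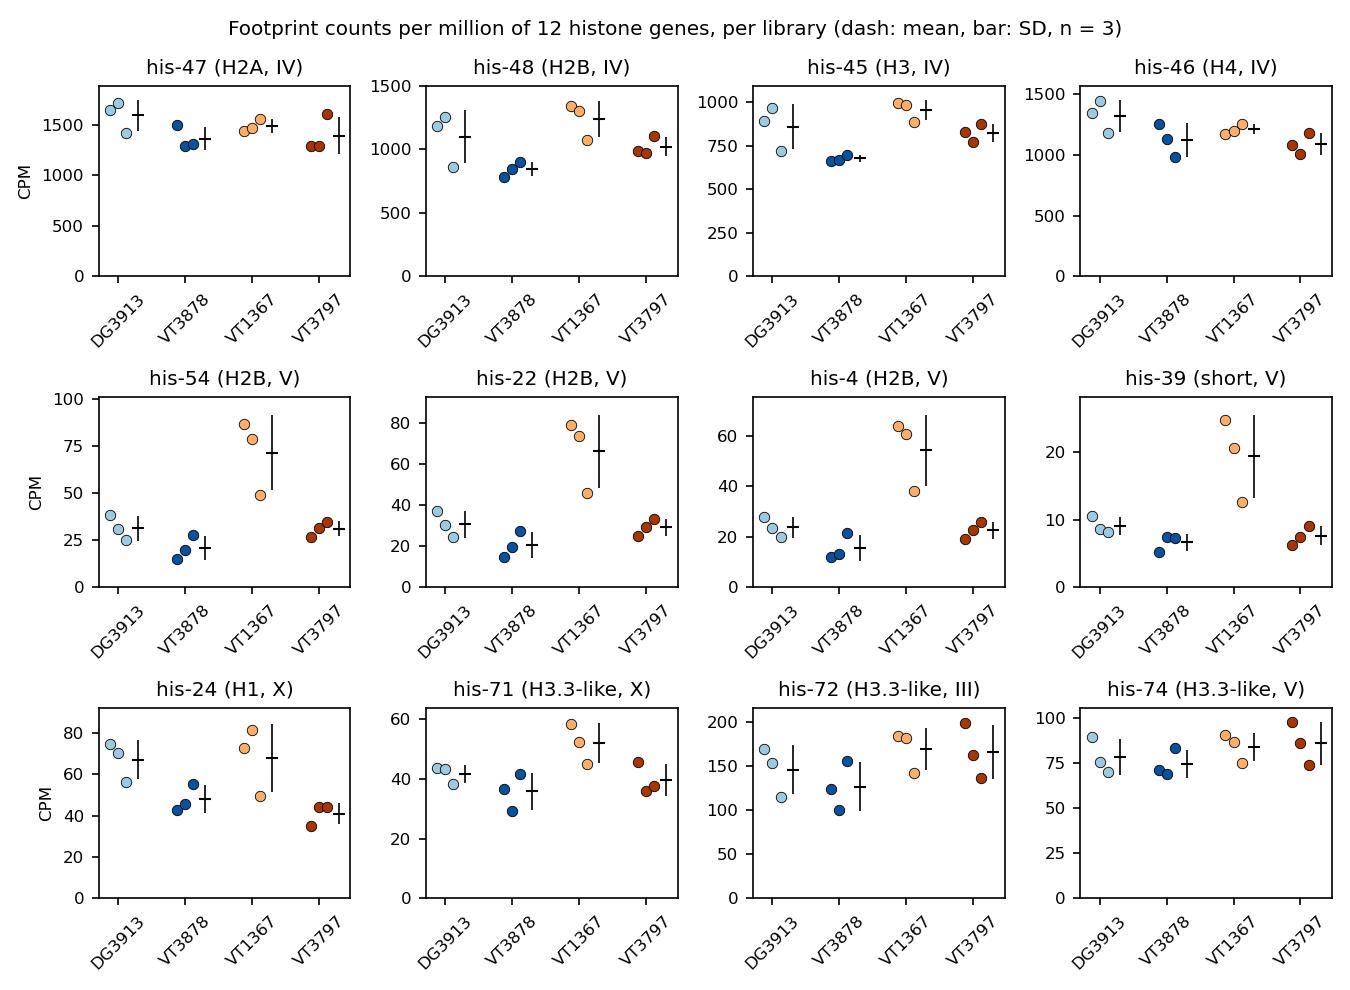
Footprint CPM of 12 histone genes per library in the 4 strains, with every axis starting at 0; dashes are means and bars SDs of 3 libraries, and the upper, middle and lower rows hold abundant IV copies, V copies, and H1 with H3.3-like genes. For his-54, his-22, his-4 and his-39 the VT1367 points stand above those of the other strains, while his-72 and his-74 overlap in both pairs.

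The share of each class carried by its V copies shows the same pattern without dependence on library scaling. Of the counts on single-exon H2B genes, the V copies held 5.48%, 5.24% and 3.90% in VT1367 and 2.34%, 2.89% and 2.78% in VT3797. They held 2.96%, 2.34% and 2.69% in DG3913 and 1.71%, 2.26% and 2.81% in VT3878. The 3 VT1367 libraries thus stood above the other 9 for H2B, of which the U13A libraries also differ in genetic background. The V share of H3 was 5.11% to 6.39% in VT1367, 3.72% to 4.67% in VT3797, 4.04% to 4.54% in DG3913 and 3.67% to 4.17% in VT3878. The V share of H2A was 8.31% to 10.3% in VT1367 and at most 7.83% elsewhere. For H4 the pattern differed: the V share was lowest in VT3797, at 10.6% to 10.9%, and 11.2% to 13.1% in the other strains.

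**Figure D4:**
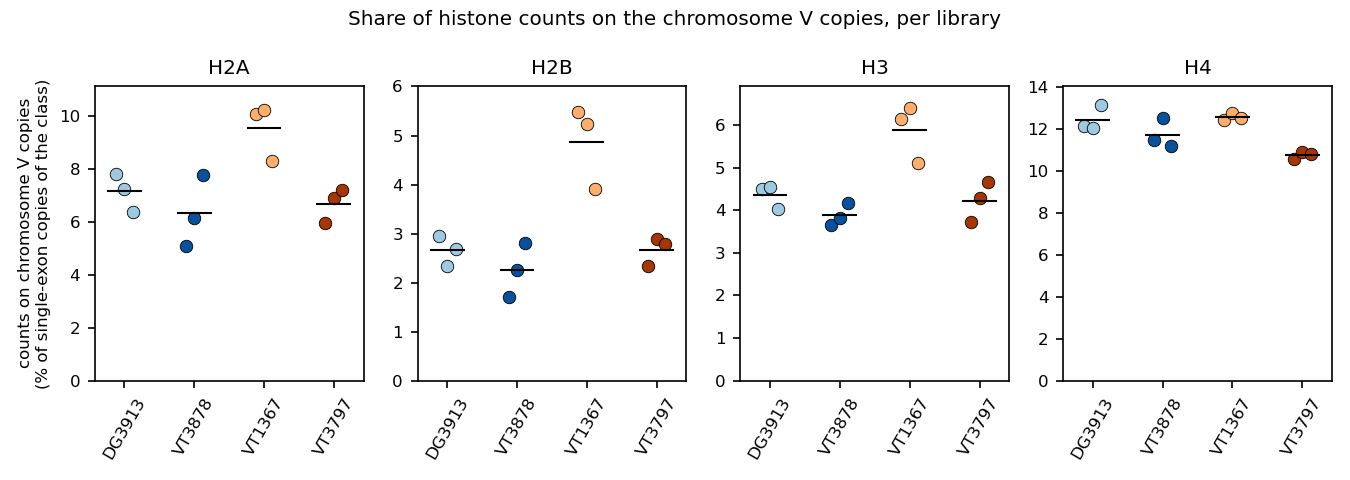
Percent of the counts on single-exon H2A, H2B, H3 and H4 genes that fell on their chromosome V copies, 1 point per library in 4 strains, with lines at the means of 3 libraries and axes starting at 0. VT1367 stands above the other strains for H2A, H2B and H3, and VT3797 stands lowest for H4.

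Not every V gene was called in the U18A pair, and those that were not called were mostly genes with more than 1 coding exon. Among the uncalled V genes only his-74 had a positive log2 fold change, at 0.02 ± 0.10. The cluster of his-35 (H2A), his-41 (H2B) and his-37 (H4) at V, 9544659 to 9547607, had 0 of 3 called in either pair. his-35 stood at 80.7, 75.1 and 78.2 CPM in VT1367 and at 55.5, 65.9 and 70.5 CPM in VT3797, without overlap, with a change of -0.29 ± 0.09 (adjusted p = 0.0564). his-41 had log2 fold changes of 0.18 ± 0.16 (U13A) and -0.30 ± 0.12 (U18A), neither called, and shares bases on its own strand with the gene C50F4.6, so its counts are uncertain. his-37 had 0.07 ± 0.11 and -0.08 ± 0.08, and overlaps nstp-10 on the other strand. The single-exon exception on V was the H4 gene his-1, at 159, 195 and 230.4 CPM in VT1367 and 159, 156 and 180.0 CPM in VT3797, with a change of -0.25 ± 0.11 (adjusted p = 0.208). his-1 overlapped between the groups, and it stood higher in the U13A strains, at 271, 347 and 292 CPM in DG3913 and 311, 265 and 170.2 CPM in VT3878.

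On X, the divergent H4 and H3 genes his-38 and his-40 (7309564 to 7310520) both fell in the U18A pair. his-38 stood at 115, 121 and 123 CPM in VT1367 and at 93.0, 94.4 and 99.3 CPM in VT3797, without overlap, a change of -0.33 ± 0.07 (adjusted p = 0.00631). his-40 stood at 56.5, 51.6 and 37.1 CPM in VT1367 and at 30.9, 27.03 and 35.7 CPM in VT3797, also without overlap, a change of -0.63 ± 0.14 (adjusted p = 0.00979). Their U13A changes were -0.18 ± 0.11 and -0.42 ± 0.18, neither of which passed. The U18A call of his-40 was lost with no count filter, with all 12 libraries in 1 fit and without VT3797 replicate A or B. That of his-38 was lost without VT3797 replicate B.

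his-24, which encodes a linker histone H1 that binds DNA between nucleosomes, fell in both pairs. It lies on X at 14490094 to 14491119 and overlaps noncoding RNA genes on the other strand. Its level was 74.7, 70.4 and 56.3 CPM in DG3913 and 42.8, 45.8 and 55.5 CPM in VT3878, and 72.9, 81.4 and 49.5 CPM in VT1367 and 35.1, 44.04 and 44.1 CPM in VT3797. No mutant library reached the lowest control library in either pair, although VT3878 replicate C came within 1 CPM of DG3913 replicate C. The log2 fold change was -0.49 ± 0.13 in the U13A pair (adjusted p = 0.0476) and -0.72 ± 0.15 in the U18A pair (adjusted p = 0.00647), and the difference of 0.24 ± 0.25 had an adjusted p of 0.72. The U13A call of his-24 was lost in 8 alternative settings, with adjusted p between 0.0513 and 0.231. The U18A call was lost with no count filter (adjusted p = 0.136) and without VT3797 replicate A (adjusted p = 0.0746).

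Of the 5 genes classed as H3.3-like, that is as replacement H3, 1 was called lower in the U18A pair and 0 were called in the U13A pair. The gene called was his-71 (X, 7981382 to 7982070), at 58.4, 52.5 and 45.0 CPM in VT1367 and 45.7, 35.9 and 37.5 CPM in VT3797. The highest mutant library of his-71 lay just inside the control range, and its change was -0.40 ± 0.11 (adjusted p = 0.0298). That call was lost with all 12 libraries in 1 fit (adjusted p = 0.0743) and when any of 4 libraries was left out (adjusted p between 0.0845 and 0.199), which were VT1367 replicates A and B and VT3797 replicates B and C. In the U13A strains his-71 stood at 43.7, 43.3 and 38.2 CPM in DG3913 and 36.5, 29.4 and 41.6 CPM in VT3878, a change of -0.23 ± 0.13 (adjusted p = 0.403).

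his-72, the most abundant H3.3-like gene (III, 12367475 to 12369050), stood at 169, 154 and 115 CPM in DG3913, 124, 100.2 and 156 CPM in VT3878, 185, 182 and 143 CPM in VT1367, and 199, 162 and 137 CPM in VT3797. his-74 (V, 12659704 to 12660330) stood at 89.4, 75.7 and 70.02 CPM in DG3913, 71.1, 68.9 and 83.3 CPM in VT3878, 90.5, 86.6 and 75.3 CPM in VT1367, and 98.02, 86.5 and 74.1 CPM in VT3797. The groups of both genes overlapped in both pairs. Their log2 fold changes in the U18A pair were -0.04 ± 0.12 and 0.02 ± 0.10, so his-74 was the 1 histone gene with a positive value there. The neighbours his-69 and his-70 on III, at 4058360 to 4060119, had changes of -0.35 ± 0.15 and -0.23 ± 0.16 in the U13A pair and -0.14 ± 0.13 and -0.13 ± 0.11 in the U18A pair. Within this class his-72 stood highest in every strain, between 311 and 416 CPM per kb of coding length, and his-71 stood between 87.8 and 127 CPM per kb.

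The short gene model his-73 on II, which shares bases with W09H1.4 on its own strand, stood at 307, 324 and 250.2 CPM in DG3913 and 179, 264 and 232 CPM in VT3878. It stood at 321, 320.0 and 263 CPM in VT1367 and 207, 248 and 284 CPM in VT3797. The his-73 groups overlapped in both pairs, and its changes were -0.39 ± 0.15 and -0.29 ± 0.11 with adjusted p of 0.175 and 0.12.

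Counted by overlap alone, every VT3797 library lay below every VT1367 library for 31 of the 72 histone genes, 23 of them on V, 5 on IV and 3 on X. Of all genes tested in that pair, 15.1% lay wholly below their control libraries and 12.8% wholly above. In the U13A pair 11 of the 72 histone genes lay wholly below, 5 of them on V, against 10.9% of all genes below and 11.8% above. No histone gene lay wholly above its control libraries in either pair. By the test, and in either direction, 10.9% of all genes were called for U18A and 5.64% for U13A. At an unadjusted p under 0.05, 48 histone genes were lower in the U18A pair and 36 in the U13A pair, with 0 higher in both, against 22.9% and 18.3% of all genes in either direction.

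The changes of the pairs were set against each other in 1 fit over all 12 libraries. By edgeR's quasi-likelihood test 0 of 72 histone genes had changes that differed between the pairs, against 5.58% of all genes tested (4.05% higher and 1.53% lower), and DESeq2 gave 0 as well. At an unadjusted p under 0.05, 2 histone genes did, against 17.2% of all genes tested. Among the V copies, 21 of 22 had a difference above 0, with a median of 0.30, while the II and IV copies had a median of -0.09. The 26 calls of the U18A pair against 1 in the U13A pair are therefore not shown to be a difference between the alleles, and the U13A fit had a larger spread between replicates (12.5% coefficient of biological variation, against 8.51%).

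Which histone genes passed depended on the libraries and on the filter. In the U18A pair 40 were lower without VT1367 replicate C and 39 without VT3797 replicate C, 13 of them on chromosomes I to IV each time. The other leave-outs gave 21 to 25. Of all genes, 1529 and 1467 were called in either direction without these replicates C, against 1478 with all libraries in. With no count filter 26 were also lower, but 16 were the same genes and 9 lay on I to IV, and the H2B genes his-22 and his-54 (adjusted p = 0.0653 and 0.0675) and his-39 (adjusted p = 0.0782) were lost. For the U13A pair the count rose to 19 without DG3913 replicate C, 11 of them on V, 2 on X and 6 on I to IV. It rose to 11 without VT3878 replicate C, 10 of them on V and 1 on X. Of all genes, 517 and 727 were called in either direction without these libraries, against 726 with all libraries in.

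Genes that handle or accompany histones held 1 call per list and pair. Of all genes tested, the share called in either direction was 5.64% for U13A and 10.9% for U18A. These short lists were not tested against that share, so they are not shown to be called less often. Of 13 tested genes of histone supply, which include chaperones and the stem-loop binding protein gene cdl-1, 1 was higher in each pair. That gene was nasp-2, a member of the NASP family of histone chaperones, with changes of 0.50 ± 0.12 (adjusted p = 0.0283) and 0.79 ± 0.11 (adjusted p = 0.000384) in the U13A and U18A pairs. cdl-1, whose product binds the stem-loop of core histone mRNAs, had changes of -0.02 ± 0.12 and 0.03 ± 0.07. Of 9 tested genes for other linker histones and variants, 1 was lower in each pair. For U13A this was hil-2, an H1-like gene, at -0.52 ± 0.12 (adjusted p = 0.0244), and in the U18A pair hil-3, another H1-like gene, at -0.94 ± 0.19 (adjusted p = 0.00429). In the other pair hil-2 had -0.27 ± 0.12 (adjusted p = 0.185) and hil-3 -0.48 ± 0.15 (adjusted p = 0.0746). Neither change was shown to differ between the pairs (adjusted p = 0.544 and 0.526). On this list 8 of 9 changes were negative in the U13A pair and 6 of 9 in the U18A pair, where hil-1 stood at 0.87 ± 0.31 (adjusted p = 0.0985). htz-1, which encodes the variant H2A.Z, had -0.07 ± 0.12 and -0.16 ± 0.08, and hcp-3, which encodes the centromeric H3 variant, had -0.09 ± 0.12 and 0.01 ± 0.11.

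The DNA replication genes held at most 1 call per pair, and were likewise not tested against the share of all genes called. Of 28 tested, 0 were called in the U13A pair and 1 was higher in the U18A pair, mcm-3, which encodes a subunit of the replicative helicase, at 0.26 ± 0.07 (adjusted p = 0.0219). The medians over the replication list were -0.05 and 0.06. The summed germline marker list, with 12 of 12 genes tested and 0 called in either pair, stood at 3078 to 3572 CPM in DG3913, 2857 to 3254 CPM in VT3878, 2476 to 2612 CPM in VT1367 and 2617 to 2848 CPM in VT3797.

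Other marker lists did change with the pairs. All 7 oocyte genes were higher in both mutants, with sums of 59.7 to 88.8 CPM in DG3913 and 137 to 186 CPM in VT3878, and of 184 to 277 CPM in VT1367 and 446 to 521 CPM in VT3797. The list of genes expressed around the molt had 9 of 10 genes lower in the U18A pair and 2 higher in the U13A pair. Its sum was 1455, 1049 and 989.8 CPM in VT1367, 532 to 548 CPM in VT3797, 246 to 319 CPM in DG3913 and 348 to 539 CPM in VT3878, so VT1367 stood highest there, as it did for the V share of H2A, H2B and H3 but not of H4. For the hypodermis list, in which 2 of 3 genes were lower in the U18A pair and 1, dpy-7, was higher in the U13A pair, the sum was 118.7 to 160.1 CPM in VT1367, 70.3 to 72.9 in VT3797, 51.6 to 76.5 in DG3913 and 52.4 to 80.3 in VT3878. Of 10 sperm genes tested 1, spe-44, was lower in each pair, while the muscle and neuron lists had 0 of 3 called in both pairs and of 3 intestine genes 1 was higher in the U18A pair. The part of molting stage, tissue makeup or depth in the histone changes was not tested.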

How the data were processed

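Ribosome footprints of 12 libraries, 3 for each of 4 strains, were analysed from 2 tables of raw counts per gene as deposited by the authors. The submitters' processing notes name cutadapt 1.9, Bowtie2 2.3.4.3 and the build WBcel235. The counting tool, its annotation, its use of strand and its treatment of multi-mapping reads are not given in the sources used here. The members and gene lists were chosen with earlier results of these data known.

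Samples were grouped by the strain in their labels. Each pair was fitted alone over its whole table in edgeR 4.0.16 (R 4.3.3) with filterByExpr, TMM scaling and a robust quasi-likelihood fit. The difference between pairs was a contrast over all 12 libraries. P-values were adjusted by Benjamini-Hochberg over all genes tested, and genes were called at 0.05. The test covered 12874 genes in the U13A pair, 13614 in the U18A pair and 13597 for the difference. Standard errors came from the fold change and its F statistic. Scaling over 12 libraries, used for printed CPM, moved the fold change by at most 0.03 on the log2 scale. Replicate libraries differed beyond sampling noise (chi-square per degree of freedom 5.55 to 41.1).

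Classes came from general knowledge of the family, checked against coding lengths. The lengths of his-69 and his-70 differ from the 136 residues of H3, so their class rests on that knowledge alone. Positions came from Ensembl and RefSeq annotation of WBcel235, which gave the same position for 72 of 72 genes. Genes given library by library are leading genes of each core class, most genes outside the single-exon core copies, and the largest called changes. For the last, the group with more counts had to average 50 or more. Only fold changes are given for his-37, his-41, his-69 and his-70. For his-35, his-38, his-40 and his-54 the text gives values by library in the U18A pair only. The X genes his-38 and his-40, his-1 and the uncalled V genes were named after their values were seen. On simulated data with 200 genes changed by 1 on the log2 scale, the fits recovered 89.4% (U13A, 12859 genes), 90.9% (U18A, 13617 genes) and 68.2% (difference, 13505 genes). Of their calls 7.33%, 3.74% and 1.46% were false. The simulation drew genes independently with 1 common dispersion per comparison, and its changes were larger than most histone changes. Its rates therefore do not carry over to smaller changes or to copies that share reads. Alternatives were DESeq2 1.42.0, median-of-ratios size factors, TMM without histone rows, dropping the count filter, a floor of 10 counts per library, blocking on the replicate letter, a fit without robust estimation, 1 fit over all 12 libraries and leaving out each library. Counting near copies once and scaling class sums within a pair were added after seeing the data.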

Additional observations from a re-analysis of the deposited data

Results flagged for a closer look

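With 3 libraries in every group, single libraries were not tested for standing apart. The lists that were set beside the histone genes gave changes that differed between the pairs by a test of the difference itself, in edgeR's quasi-likelihood contrast over 12 libraries. Of the 10 molting stage genes 9 had a change that was higher in the U13A pair than in the U18A pair. Of the 3 hypodermis genes 2 differed, both higher in the U13A pair, and of the 3 intestine genes 1 differed, lower in the U13A pair. Of the 72 histone genes 0 differed at an adjusted p under 0.05.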

How the results depend on the processing

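No called histone gene examined under the alternatives changed direction. Class sums have no test. When each library was left out, the H3.3-like log2 ratio ran from -0.20 to 0.02 in the U18A pair and from -0.33 to -0.08 in the U13A pair, and was -0.13 on raw library totals in the U18A pair, while all other class ratios were below 0. In the U18A pair the count of 26 lower genes was 26 under DESeq2, median-of-ratios size factors, TMM without histone rows and no robust estimation, 27 with at least 10 counts in every sample, 22 with all 12 libraries in 1 fit and 19 with near copies counted once, and ran from 21 to 40 when each library was left out. In the U13A pair the count of 1 became 5 with no count filter (his-2, his-17, his-24, his-27 and his-49), 0 with at least 10 counts in every sample, 0 with no robust estimation and between 0 and 19 when each library was left out. Of all genes, 942 were called in the U13A pair with no count filter, against 726 in the main fit. The cause of these shifts was not tested. The count of 0 for the difference ran from 0 to 1 across leave-outs, the 1 being his-39 without VT1367 replicate C. With the replicate block the counts were 0 in the U13A pair, 34 in the U18A pair (6 of them on chromosomes I to IV) and 0 for the difference. Of all genes, 424, 1701 and 638 were called with this block. To see whether the letters pair the libraries, the strain mean of each gene was first subtracted from its log2 CPM. These deviations correlated between same-lettered libraries at -0.03, 0.02 and -0.36 in the U13A pair and 0.14, -0.01 and 0.13 in the U18A pair. The deviations of a library did not always correlate best with those of its own letter, so the letters were not taken to pair the libraries. Low counts limit his-39, and shared reads limit every near copy.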
